A study of Mus musculus with 4 samples.

Results

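The collagen genes other than those of type IV were compared between DPPIV- and DPPIV+ FAPs. They were taken as every gene symbol in the count table made of Col, a type number, the letter a and a chain number, with the 6 type IV genes (Col4a1 to Col4a6) left out. This gave 38 of the 24421 symbols counted, of which 28 were abundant enough to be tested and 10 were not.

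FAPs, the fibro-adipogenic progenitors, are stromal cells of skeletal muscle, and DPPIV is the surface peptidase encoded by Dpp4. Wild-type mice had been fed an inhibitor of CSF1R, the receptor that macrophages need to survive, for 3 weeks and then a regular diet for 3 days. Cells gated as PI-, CD31-, CD45- and Sca1+ were sorted into DPPIV- and DPPIV+ fractions from each of 2 mice and sequenced as bulk mRNA, so both groups share the treatment, the time and the animals, and no library came from an untreated mouse. The source is labelled as the tibialis anterior, while the extraction protocol describes dissection of muscle from both hindlimbs, and the age and sex of these 2 mice are not given in the sources used here. The animals are called mouse 1 (231H6) and mouse 2 (235H5).

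The libraries held between 18240110 and 20879405 reads counted on genes, so that 3 reads, taken as the limit of detection, corresponded to between 0.143 and 0.166 CPM (reads scaled to the size of the library). Dpp4 was at 89.6 CPM in mouse 1 and 39.6 CPM in mouse 2 in DPPIV- FAPs, against 726 and 574 CPM in DPPIV+ FAPs, the direction that the labels give. All 5 FAP markers (Pdgfra, Ly6a, Cd34, Dcn and Thy1) were abundant in every library, with summed levels between 15939 and 19527 CPM. They were not equal between the fractions: Pdgfra (-0.38 ± 0.07 on the log2 scale) and Dcn (-0.28 ± 0.09) were lower in DPPIV+ FAPs, and Ly6a (0.58 ± 0.07), Cd34 (0.52 ± 0.07) and Thy1 (1.16 ± 0.07) were higher, by edgeR and by DESeq2. Levels are given as CPM on TMM-scaled library sizes, and differences as log2 fold changes of DPPIV+ over DPPIV- FAPs with their standard error, from a model of mouse and cell type (n = 2 mice, edgeR's quasi-likelihood test, Benjamini-Hochberg adjusted over 11588 genes, threshold 0.05). These standard errors rest on a spread shared by genes of similar abundance, and do not measure how a gene varied between the 2 mice. In bulk libraries, fewer cells that express a gene and less RNA per cell cannot be told apart.

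Collagens are matrix proteins whose chains wind into a helix. Fibrillar collagens (types I, II, III, V, XI, XXIV and XXVII) form the cables that bear tension in muscle connective tissue and tendon, with types V and XI setting fibril initiation and thickness. FACIT collagens decorate fibril surfaces, type VI forms beaded filaments next to cells and basement membranes, and the multiplexins XV and XVIII sit at basement membranes. The chains are hydroxylated and folded in the endoplasmic reticulum, secreted, trimmed of their propeptides, crosslinked by lysyl oxidases and bound by integrin and discoidin domain receptors.

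Most collagen genes were lower in DPPIV+ FAPs. Of the 28 genes tested, 21 were lower, 4 were higher and 3 did not pass the test. Across all genes tested, 17.2% were lower and 15.9% higher, together 33.0%. Among the 1641 genes at a mean of 100 CPM or more, 20.2% were lower and 32.8% higher, together 53.0%, and the 16 collagen genes in that range had 12 lower and 2 higher. The median log2 fold change of the 28 was -0.55, against -0.002 over all genes tested. Col7a1 and Col9a2 passed the filter on low counts (2 CPM in at least 2 libraries) through the DPPIV- libraries alone, which favours finding them lower. Leaving them aside, 19 of 26 were lower, with a median log2 fold change of -0.45 over the 26. Without the mouse in the model, 14 of the 28 were lower, Col7a1 and Col9a2 among them, and 1 higher, where 9.66% and 8.64% of all genes were. DESeq2 called 19 of the 28 lower, Col9a2 among them, and 4 higher, where it called 8.59% and 7.97% of all genes. Of the 26 genes without Col7a1 and Col9a2, 7 were lower by 1 or more on the log2 scale, as were 4.88% of all genes tested, and 2 were higher by as much, as were 2.91%. All 28 genes had the same direction in both mice, as did 72.9% of all genes tested. In 26 of the 28, Col7a1 and Col9a2 included, the 2 groups did not overlap, as in 56.3% of all genes tested.

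**Figure D1:**
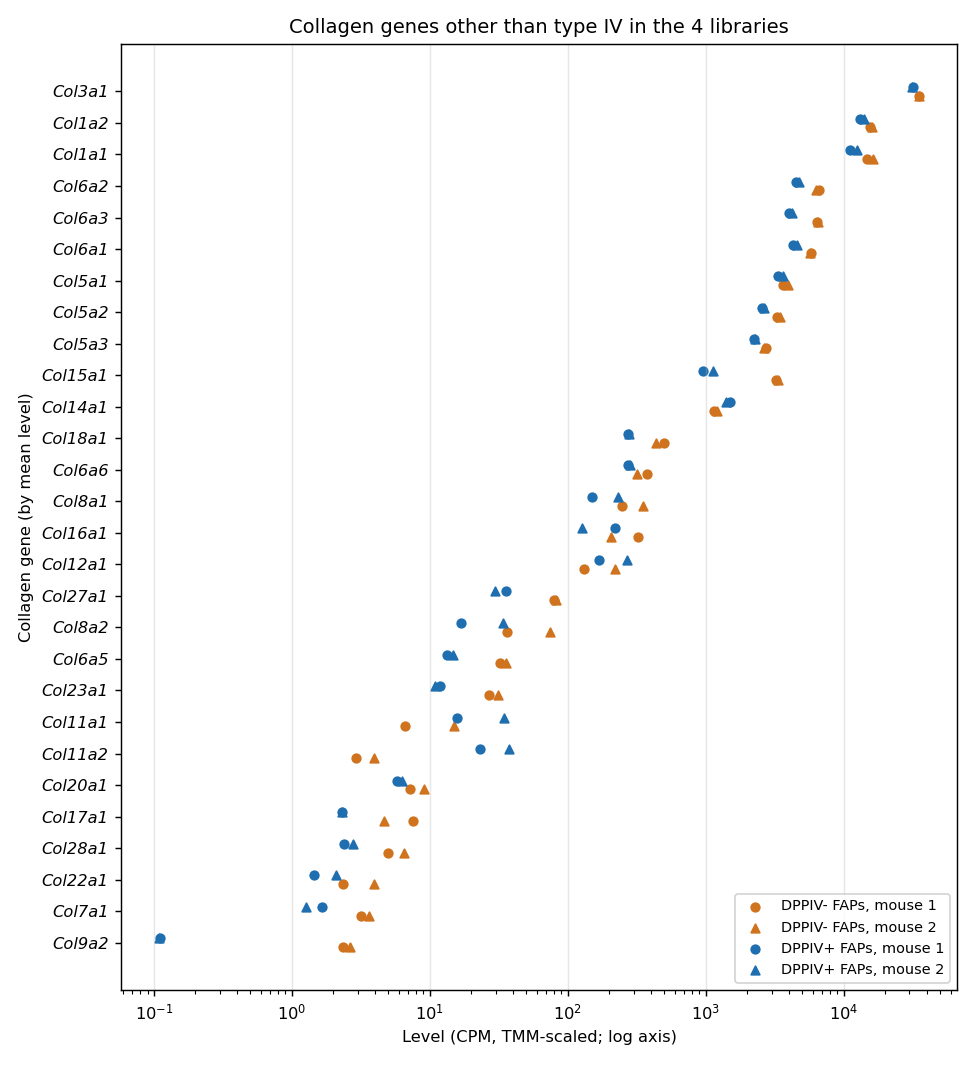
Level of the 28 collagen genes tested, in CPM on a log axis, with 1 point per library (orange, DPPIV- FAPs; blue, DPPIV+ FAPs; circle, mouse 1; triangle, mouse 2). Levels run from 0.109 CPM for Col9a2 to 35418 CPM for Col3a1, and the blue points lie to the left of the orange ones in most rows, with Col11a1 and Col11a2 the clearest exceptions.

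Among the 28 genes, the widest increases were those of the type XI chains, which form thin heterotypic fibrils with type V and, in cartilage and tendon, template larger ones. Col11a2 (chr17:34039437-34066685, plus strand, GRCm38) was at 2.91 CPM in mouse 1 and 3.93 CPM in mouse 2 in DPPIV- FAPs, and at 23.2 and 37.5 CPM in DPPIV+ FAPs. Both DPPIV+ libraries were far above both DPPIV- libraries. The log2 fold change was 3.14 ± 0.14, or 8.80-fold (edgeR, adjusted p = 1.04e-103). At nearly the same fold change, the adjusted p was 2.81e-37 with DESeq2 and 0.000244 without the mouse in the edgeR model. Col11a1 (chr3:114030540-114220718, plus strand) was at 6.63 and 15.0 CPM in DPPIV- FAPs and at 15.7 and 34.4 CPM in DPPIV+ FAPs. Within each mouse the DPPIV+ library was above the DPPIV- library, but the DPPIV- library of mouse 2 lay close to the DPPIV+ library of mouse 1. The log2 fold change was 1.21 ± 0.12 (edgeR, adjusted p = 5.09e-23), and without the mouse in the model the adjusted p was 0.106. Because Col11a2 changed more than Col11a1, the ratio of Col11a1 to Col11a2 per transcript length went from 1.80 and 3.01 in DPPIV- FAPs to 0.533 and 0.723 in DPPIV+ FAPs. Type XI remained scarce beside type V: it made up 0.0978% and 0.183% of the type V and XI chains per length in DPPIV- FAPs and 0.508% and 0.884% in DPPIV+ FAPs.

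The third chain of type XI is a product of Col2a1, the type II gene of cartilage. Col2a1 was under the filter, with 6 reads in mouse 1 and 11 in mouse 2 in DPPIV- FAPs and 34 and 41 in DPPIV+ FAPs. Both DPPIV+ libraries were higher. The ratio of summed reads per scaled library was 4.93 (95% exact interval 2.88 to 8.91, for counting error only), and with no filter edgeR gave a log2 fold change of 2.30 (adjusted p = 1.46e-05) and DESeq2 an adjusted p of 0.0237. With no filter, 11.2% of all genes were higher and 11.9% lower by edgeR.

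The windows before the start sites of the type XI genes are shown with that of Col15a1, since the first pair was higher in DPPIV+ FAPs and Col15a1 had the widest decrease among abundant members. Each is the 250 bases upstream of the RefSeq start on GRCm38.p6, in the direction of transcription, at chr3:114030290-114030539 for Col11a1, chr17:34038888-34039137 for Col11a2 and chr4:47207762-47208011 for Col15a1, all on the plus strand. For Col11a2 and Col15a1 the RefSeq start lies upstream of the gene start given in this text, which is from GENCODE M21. For Col11a1 the starts coincide. Capitals mark the GC box letters GGGCGG, the TATA box letters TATAAA and the CCAAT box letters CCAAT, on either strand.
Col11a1: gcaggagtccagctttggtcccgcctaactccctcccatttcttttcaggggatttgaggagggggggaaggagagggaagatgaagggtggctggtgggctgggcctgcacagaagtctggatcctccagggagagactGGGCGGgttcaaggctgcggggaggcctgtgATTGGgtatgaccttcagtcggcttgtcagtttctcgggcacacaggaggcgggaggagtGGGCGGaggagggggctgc
Col11a2: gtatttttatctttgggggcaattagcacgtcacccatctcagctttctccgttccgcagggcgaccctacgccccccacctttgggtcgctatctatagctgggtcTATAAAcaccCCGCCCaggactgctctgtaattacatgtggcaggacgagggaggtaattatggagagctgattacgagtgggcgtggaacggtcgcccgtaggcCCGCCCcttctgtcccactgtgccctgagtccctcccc
Col15a1: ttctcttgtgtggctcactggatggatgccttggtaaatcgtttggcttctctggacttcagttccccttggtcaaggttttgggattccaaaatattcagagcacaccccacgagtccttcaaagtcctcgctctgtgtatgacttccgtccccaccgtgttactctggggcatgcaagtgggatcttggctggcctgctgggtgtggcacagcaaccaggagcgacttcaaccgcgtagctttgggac
The Col11a1 window held GGGCGG at 2 places and CCAAT at 1, the Col11a2 window held GGGCGG at 2 places and TATAAA at 1, and the Col15a1 window held none of these letters. RefSeq gave 33 windows for 30 of the 38 collagen genes. GGGCGG was in 19 of the 33 windows (18 genes), CCAAT in 10 and TATAAA in 5. Of all 32851 windows of this length, 32.7% held GGGCGG, 33.8% CCAAT and 12.4% TATAAA. The median GC content of all windows was 52.4%, against 62.4% for Col11a1, 57.6% for Col11a2 and 53.6% for Col15a1. A difference in these letters between collagen genes and all genes was not tested. These are matches of letters and not measured sites.

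The main fibrillar collagens were the most abundant members and differed by 0.40 or less on the log2 scale. Per transcript length, Col3a1, the single chain of type III, ranked first, followed by Col1a2 and Col1a1, the chains of type I. Col3a1 was at 35418 and 35242 CPM in DPPIV- FAPs and 31873 and 31382 CPM in DPPIV+ FAPs. This difference, -0.16 ± 0.09 on the log2 scale, did not pass the test (edgeR, adjusted p = 0.202). Col1a1 was at 14763 and 16449 CPM in DPPIV- FAPs and 11144 and 12534 CPM in DPPIV+ FAPs. It fell by 0.40 ± 0.09 on the log2 scale (edgeR, adjusted p = 2.39e-05). Col1a2 was at 15611 and 15917 CPM in DPPIV- FAPs and 13076 and 13994 CPM in DPPIV+ FAPs. It fell by 0.22 ± 0.09 (edgeR, adjusted p = 0.0356), the highest adjusted p among the calls. That call was lost with offsets for GC content and length (adjusted p = 0.227) and without the mouse in the model (0.193). For each of these 3 genes, both DPPIV+ libraries lay below both DPPIV- libraries, as in 28.6% of all genes tested.

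Type V chains, which start type I fibrils, moved by similar amounts. Col5a1 was at 3663 and 3951 CPM in DPPIV- FAPs and 3357 and 3606 CPM in DPPIV+ FAPs, with a log2 fold change of -0.13 ± 0.08 that did not pass the test (edgeR, adjusted p = 0.210). Col5a2 was at 3263 and 3446 CPM against 2574 and 2639 CPM, and fell by 0.36 ± 0.08. Col5a3 was at 2734 and 2646 CPM against 2231 and 2268 CPM, and fell by 0.26 ± 0.07, a call lost with the GC and length offsets (edgeR, adjusted p = 0.399) and without the mouse in the model (0.0913). The ratio of Col5a1 to Col5a2 per length was accordingly 0.885 and 0.904 in DPPIV- FAPs and 1.03 and 1.08 in DPPIV+ FAPs. Col5a2 and Col3a1 lie 24.6 kb apart on chromosome 1, on opposite strands.

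Of the less usual fibrillar genes, Col27a1 (type XXVII, known from developing cartilage) was at 79.8 and 82.5 CPM in DPPIV- FAPs and 35.6 and 29.8 CPM in DPPIV+ FAPs. It fell by 1.31 ± 0.07 (edgeR, adjusted p = 2.67e-71). Col24a1 was under the filter, with 29 and 44 reads in DPPIV- FAPs and 4 and 6 in DPPIV+ FAPs. That was a ratio of 6.53 in favour of DPPIV- FAPs (95% exact interval 3.36 to 14.2), and with no filter edgeR gave a log2 fold change of -2.68 (adjusted p = 1.27e-05) and DESeq2 an adjusted p of 0.0207. Of the 9 fibrillar genes tested, 2 were higher, 5 lower and 2 did not pass. The fibrillar class therefore held both directions, with type XI and Col2a1 on one side and Col24a1 and Col27a1 on the other.

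**Figure D2:**
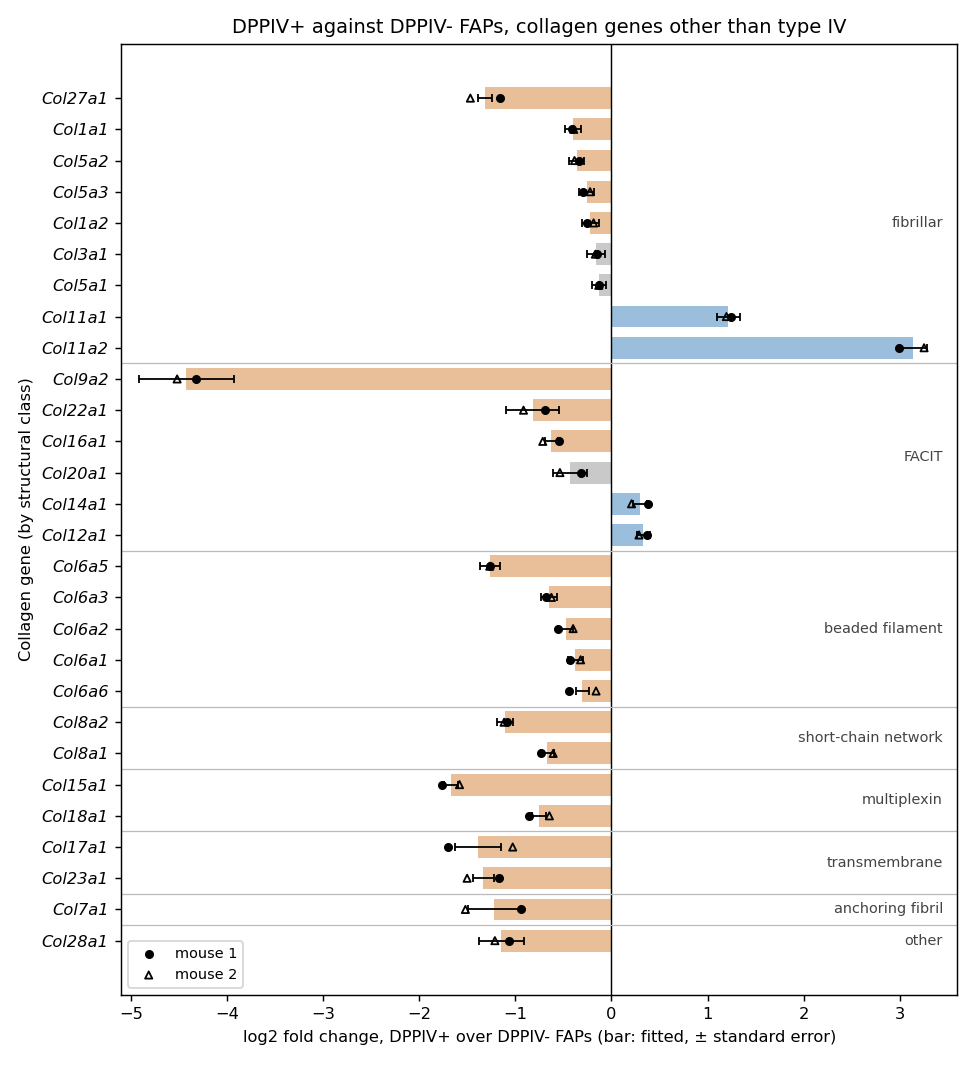
Log2 fold change of DPPIV+ over DPPIV- FAPs for the 28 collagen genes tested, by structural class. Bars are fitted values with their standard error (blue, higher; orange, lower; grey, not passed) and points are the ratio within each mouse. Both mice lie on the same side of 0 for all 28, from -4.42 for Col9a2, which had 2 reads in each DPPIV+ library, to 3.14 for Col11a2.

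The FACIT collagens were divided as well. Col14a1 and Col12a1, which coat type I fibrils in tendon and fascia, were higher in DPPIV+ FAPs. Col14a1 was at 1146 and 1205 CPM in DPPIV- FAPs and 1493 and 1393 CPM in DPPIV+ FAPs. The fitted log2 fold change was 0.30 ± 0.07 (edgeR, adjusted p = 0.000205). Col12a1 was at 131 and 220 CPM against 169 and 269 CPM, a log2 fold change of 0.33 ± 0.07 (edgeR, adjusted p = 5.97e-06). The Col12a1 groups overlapped, since mouse 2 was above mouse 1 in both fractions. Neither passed without the mouse in the model (adjusted p = 0.0629 for Col14a1 and 0.520 for Col12a1).

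Col9a2, a chain of type IX of cartilage, was hardly detected in DPPIV+ FAPs. It had 49 and 52 reads in DPPIV- FAPs and 2 reads in each DPPIV+ library, which is under the limit of 3 reads. The ratio of summed reads per scaled library was 22.6 in favour of DPPIV- FAPs (95% exact interval 8.56 to 84.5, for counting error only). It was tested only because its DPPIV- libraries passed the filter, so no p-value is given, and its fitted log2 fold change of -4.42 ± 0.49 has no firm size. The other type IX chains were nearly absent: Col9a1 had 1 read in 1 DPPIV- library and 0 in the other 3, and Col9a3 had 7 and 9 reads in DPPIV- FAPs and 2 and 7 in DPPIV+ FAPs. Col9a3 shares 234 exon bases with Tcfl5 on the opposite strand, and whether strand was used in counting is not given in the sources used here.

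Col16a1 and Col22a1 (the latter a collagen of the muscle-tendon junction) were also lower, by log2 fold changes of -0.63 ± 0.07 and -0.82 ± 0.27. The Col22a1 call rested on 1.44 to 3.93 CPM and was lost with DESeq2 (adjusted p = 0.430) and without the mouse in the edgeR model (0.170). The Col16a1 groups overlapped, and its call was also lost without the mouse (adjusted p = 0.208). Col20a1 had a log2 fold change of -0.43 ± 0.18 that just missed the threshold (edgeR, adjusted p = 0.0510).

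The type VI genes were lower without exception among the 5 tested, whereas 17.2% of all genes tested were lower. Type VI is the microfibrillar collagen of the cell surface whose loss causes muscle disease. Col6a1 was at 5841 and 5689 CPM in DPPIV- FAPs and 4320 and 4555 CPM in DPPIV+ FAPs. Col6a2 was at 6592 and 6250 CPM against 4486 and 4740 CPM. Col6a3 was at 6411 and 6466 CPM against 4010 and 4194 CPM. Both DPPIV+ libraries were below both DPPIV- libraries for each chain, as in 28.6% of all genes tested. The log2 fold changes were -0.38 ± 0.08, -0.48 ± 0.08 and -0.65 ± 0.08 (edgeR, adjusted p = 1.14e-05, 1.89e-08 and 4.21e-15). Per length, Col6a1 and Col6a2 stood near parity in all 4 libraries, with ratios between 1.01 and 1.09. The ratio of Col6a3 to Col6a1 was 0.445 and 0.461 in DPPIV- FAPs and 0.377 and 0.374 in DPPIV+ FAPs.

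Col6a5 and Col6a6 encode alternative partners for the Col6a3 position. Col6a5 was at 32.1 and 35.6 CPM in DPPIV- FAPs and 13.4 and 14.8 CPM in DPPIV+ FAPs. The fitted log2 fold change was -1.26 ± 0.10 (edgeR, adjusted p = 8.18e-34). Col6a6 was lower by a smaller amount, with a log2 fold change of -0.30 ± 0.07 that lost its call without the mouse in the model (edgeR, adjusted p = 0.0840). Col6a4, 28.8 kb from Col6a5 on chromosome 9, stayed under the filter with 7 to 19 reads per library. Col6a1 and Col6a2 lie 85.2 kb apart on chromosome 10, and Col6a6 lies 27.9 kb from Col6a5.

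The multiplexins of basement membranes were lower as well. Col15a1 (chr4:47208161-47313167, plus strand), whose product bridges basement membrane and interstitial fibrils, was at 3220 and 3362 CPM in DPPIV- FAPs and 950 and 1124 CPM in DPPIV+ FAPs. The DPPIV- libraries lay close together and well above the others, with a 3.18-fold difference (log2 fold change -1.67 ± 0.08, edgeR, adjusted p = 1.56e-102). Col18a1, the precursor of endostatin, was at 497 and 436 CPM against 274 and 279 CPM, a log2 fold change of -0.75 ± 0.07 (edgeR, adjusted p = 8.54e-27). The excluded type IV genes of basement membranes were lower for Col4a1 (-0.76 ± 0.08), Col4a2 (-0.83 ± 0.08), Col4a3 (-0.31 ± 0.07) and Col4a4 (-0.23 ± 0.07), higher for Col4a5 (0.17 ± 0.07) and not passed for Col4a6. The calls of Col4a3, Col4a4 and Col4a5 were lost with DESeq2 (adjusted p = 0.123, 0.286 and 0.369).

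Type VIII, a short-chain collagen of vessel walls and of Descemet's membrane in the eye, was lower for both chains. Col8a2 was at 36.0 and 74.0 CPM in DPPIV- FAPs and 17.0 and 34.1 CPM in DPPIV+ FAPs. The fitted log2 fold change was -1.10 ± 0.08. Its levels were higher in mouse 2 in both fractions, and without the mouse in the model the adjusted p was 0.0995. Col8a1 had a log2 fold change of -0.67 ± 0.07 and likewise lost its call without the mouse (adjusted p = 0.0940). Col10a1, the other short-chain gene, had 0 reads in all 4 libraries.

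In the scarcer classes, each of the few genes tested was lower by edgeR. Among the transmembrane collagens, Col23a1 was at 26.8 and 31.0 CPM in DPPIV- FAPs and 11.9 and 10.9 CPM in DPPIV+ FAPs (-1.33 ± 0.11 on the log2 scale), and Col17a1, known from the skin's hemidesmosomes, was at 7.58 and 4.69 CPM against 2.33 and 2.30 CPM (-1.39 ± 0.24). Col7a1, the anchoring fibril gene of skin, was at 3.20 and 3.62 CPM against 1.66 and 1.26 CPM (-1.22 ± 0.28). It too passed the filter through DPPIV- FAPs alone, and its call was lost with DESeq2 (adjusted p = 0.112). Col28a1, known from peripheral nerve, was at 5.01 and 6.48 CPM against 2.38 and 2.79 CPM (-1.14 ± 0.23). For these 4 genes both DPPIV+ libraries were below both DPPIV- libraries, as in 28.6% of all genes tested.

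The remaining genes under the filter had few reads. Col26a1 had 11 and 14 reads in DPPIV- FAPs and 3 and 2 in DPPIV+ FAPs, a ratio of 4.47 (95% exact interval 1.68 to 15.0), and with no filter edgeR gave an adjusted p of 0.0984. Col13a1, a transmembrane collagen of the neuromuscular junction, had 16 to 25 reads in every library. Col19a1 and Col25a1 had at most 1 read in any library.

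Collagen genes other than type IV took 10.1% of all reads in mouse 1 and 10.5% in mouse 2 in DPPIV- FAPs, and 7.99% and 8.26% in DPPIV+ FAPs. The log2 ratio was -0.34 in both mice. With 2 pairs, an exact permutation test cannot give a two-sided p below 0.5, so no test was made. Without Col1a1, Col1a2 and Col3a1, the log2 ratio was -0.50. Of the collagen reads, type III made up a mean of 34.8% in DPPIV- and 38.5% in DPPIV+ FAPs, type I 30.9% and 30.8%, type VI 18.7% and 16.3%, type V 9.71% and 10.1%, type XV 3.24% and 1.26%, and type XIV 1.16% and 1.76%. The share of type I among collagen reads thus moved little. Type III gained and type VI lost the most in percentage points among the types named, and type XV changed the most as a ratio.

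**Figure D3:**
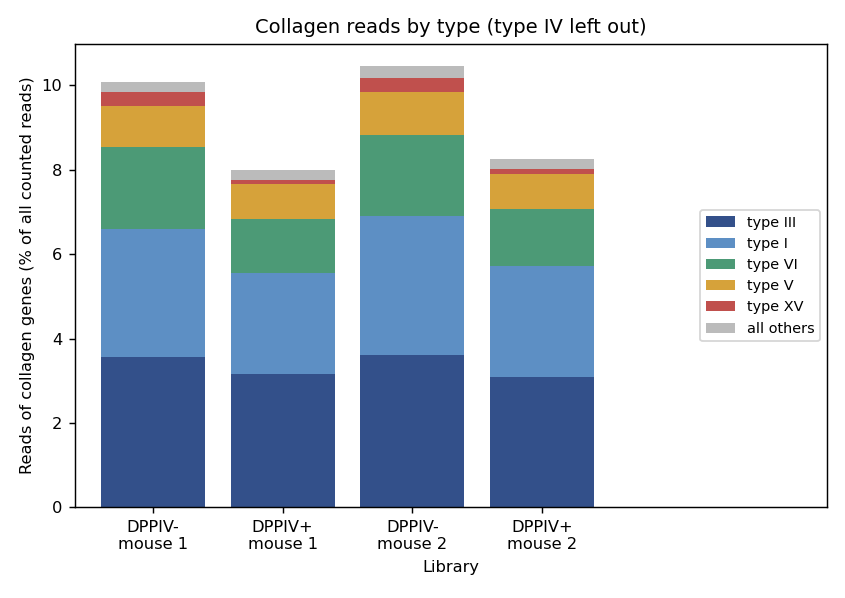
Reads on collagen genes other than type IV as a percent of all counted reads, by type, in the 4 libraries. The bars reach 10.1% and 10.5% in DPPIV- FAPs and 7.99% and 8.26% in DPPIV+ FAPs, and types III and I hold most of each bar.

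The mice themselves differed in 6 of the 28 genes, against 8.98% of all genes tested (4.47% higher and 4.51% lower in mouse 2). Col11a1 (log2 fold change of mouse 2 over mouse 1 of 1.15 ± 0.12), Col8a2 (1.03 ± 0.08), Col12a1 (0.71 ± 0.07), Col11a2 (0.63 ± 0.13) and Col8a1 (0.57 ± 0.07) were higher in mouse 2, and Col16a1 (-0.72 ± 0.07) was lower. For Col16a1 and Col12a1 this difference was wider than that between the fractions. In each of these genes the fractions differed in the same direction in both mice. Whether the fractions differ by mouse cannot be tested, since the 4 libraries leave no degrees of freedom for it.

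Tendon markers moved with the type XI genes and with Col12a1. Scx, Tnmd, Mkx and Kera were higher in DPPIV+ FAPs (4 of 4, log2 fold changes of 2.14 ± 0.27, 1.27 ± 0.08, 1.44 ± 0.25 and 1.69 ± 0.09), as were 15.9% of all genes tested. These markers were also higher in mouse 2 (4 of 4), as were 4.47% of all genes tested. Their summed level was 41.2 and 54.7 CPM in DPPIV- FAPs and 95.2 and 172.9 CPM in DPPIV+ FAPs. Their part in the results for Col11a1, Col11a2, Col12a1 and Col14a1 was not tested. Of the mural cell markers (Rgs5, Notch3, Kcnj8, Cspg4, Mcam and Myh11), 5 of 6 were lower by edgeR and 3 of 6 by DESeq2, where 17.2% and 8.59% of all genes tested were. The mural markers summed to 121 and 123 CPM in DPPIV- FAPs and 51.0 and 63.4 CPM in DPPIV+ FAPs. Their part in the results for the collagens that were lower was not tested. Of the cartilage markers, Sox9 was lower in DPPIV+ FAPs (-1.08 ± 0.12), Matn1 had 0 reads, and Acan, Matn3 and Hapln1 were under 1 CPM in every library.

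**Figure D4:**
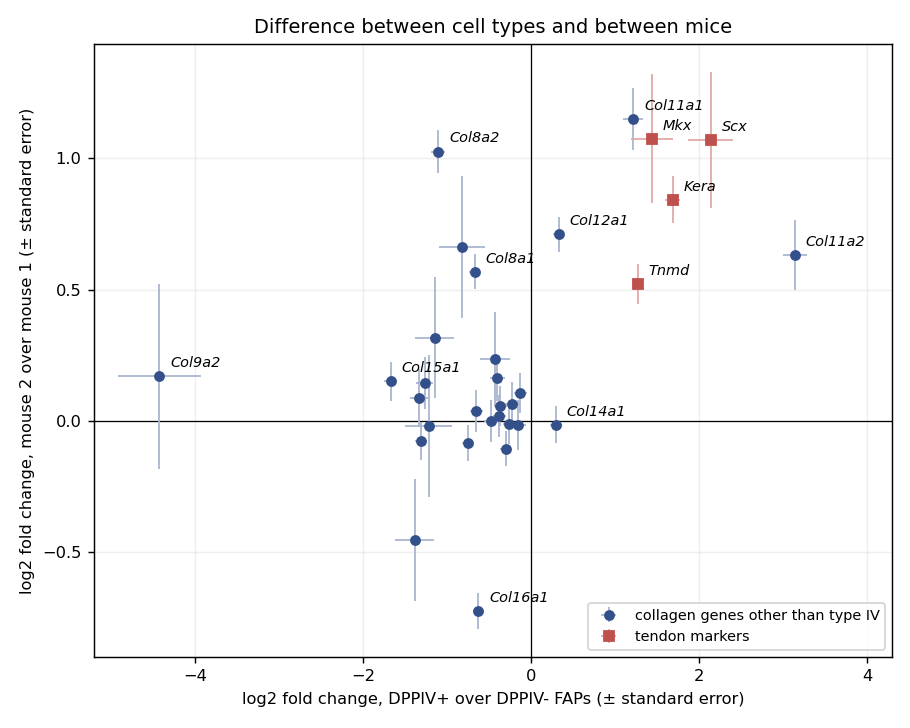
Difference between the fractions (horizontal axis, log2 DPPIV+ over DPPIV-) against the difference between the mice (vertical axis, log2 mouse 2 over mouse 1) for the 28 collagen genes (blue) and 4 tendon markers (red), with standard errors. Col11a1, Col11a2 and Col12a1 lie in the upper right with Scx, Tnmd, Mkx and Kera, while Col8a1 and Col8a2 lie in the upper left.

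Other markers gave a mixed picture. Of the endothelial markers, Pecam1, Cdh5 and Kdr were lower in DPPIV+ FAPs, Tek was higher (1.42 ± 0.07) and Emcn did not pass. Of the 4 blood markers tested, Adgre1 and Csf1r were lower and Ptprc and Cd68 did not pass. By DESeq2, these decreases of endothelial and blood markers were not called. In perineurium Cldn1 was lower and Slc2a1 did not pass. Of the satellite cell markers Vcam1 was lower (-1.77 ± 0.07), Chodl did not pass, and Pax7 and Myf5 were under 1 CPM in every library. The 4 myofibre markers had 0 calls between the fractions by edgeR, by DESeq2 or at an unadjusted p under 0.05, and were higher in mouse 2, as were 4.47% of all genes tested. Their part in the collagen results was not tested.

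Among the 48 other genes listed for collagen production and binding, 45 were tested, of which 11 were higher, 17 lower and 17 did not pass, where 15.9% of all genes tested were higher and 17.2% lower, and 32.8% and 20.2% of those at 100 CPM or more. Differences between the steps were not tested. Of 19 genes that modify and fold the chains, 12 were lower and 1 was higher by edgeR, with P4ha3, a prolyl 4-hydroxylase subunit, at 20.4 and 33.0 CPM in DPPIV- FAPs and 6.10 and 10.3 CPM in DPPIV+ FAPs (-1.70 ± 0.12). Plod1, a lysyl hydroxylase, was lower (-0.83 ± 0.07) and P3h2, a prolyl 3-hydroxylase, higher (0.59 ± 0.22). The collagen chaperone Serpinh1 (-0.11 ± 0.08) did not pass. By DESeq2, which called 8.59% of all genes lower and 7.97% higher, 6 of the 19 were lower and 0 higher, and the calls of P4ha1, P4ha2, P3h1, P3h2, P3h4, Colgalt1 and Colgalt2 were lost. Of the 5 secretion genes tested, 0 passed by edgeR or by DESeq2, and 1 (Mia3, 0.15 ± 0.07) had an unadjusted p under the threshold.

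Of 8 genes for propeptide removal, Pcolce2 (1.66 ± 0.07), Tll2 (1.07 ± 0.25), Bmp1 (0.58 ± 0.07) and Adamts2 (0.30 ± 0.07) were higher and Adamts3 (-0.56 ± 0.12) was lower. Pcolce2, an enhancer of the C-propeptide protease Bmp1, was at 185 and 129 CPM in DPPIV- FAPs and 502 and 474 CPM in DPPIV+ FAPs. Of 5 lysyl oxidases, Loxl4 (1.17 ± 0.07), Loxl2 (0.39 ± 0.07) and Loxl1 (0.36 ± 0.07) were higher, Loxl3 (-0.22 ± 0.07) was lower and Lox did not pass. The calls of Tll2, Adamts3 and Loxl3 were lost with DESeq2.

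The collagen receptors were divided. Itga2 was at 6.01 and 4.85 CPM in DPPIV- FAPs and 19.8 and 17.6 CPM in DPPIV+ FAPs (1.79 ± 0.15), and Itga1 was at 31.4 and 28.5 CPM against 11.4 and 13.7 CPM (-1.26 ± 0.11). The 2 genes encode alternative collagen-binding partners of integrin beta 1, whose gene Itgb1 did not pass. Ddr2 (0.76 ± 0.07), a receptor for fibrillar collagens, and Itga11 (0.56 ± 0.07) were higher, and Ddr1 (-0.25 ± 0.10, lost with DESeq2) and the collagen uptake receptor Mrc2 (-0.47 ± 0.07) were lower.

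**Figure D5:**
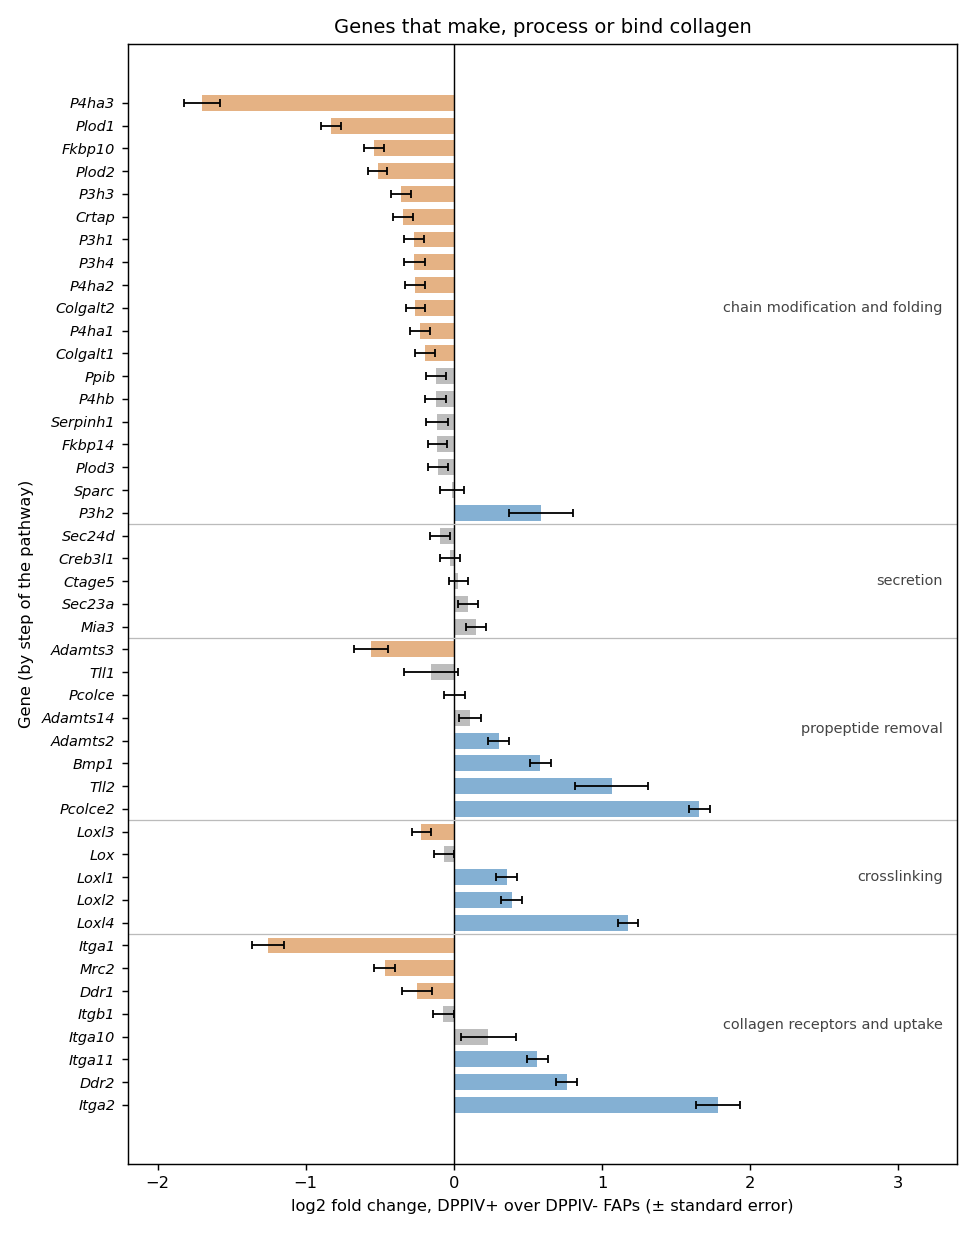
Log2 fold change of DPPIV+ over DPPIV- FAPs, with standard error, for the 45 genes tested that modify, secrete, trim, crosslink or bind collagen (blue, higher; orange, lower; grey, not passed). Bars for chain modification point mostly to the left, led by P4ha3, while Pcolce2, Tll2, Loxl4 and Itga2 reach beyond 1 to the right.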

How the data were processed

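Per the labels and the methods, paired-end reads were demultiplexed with bcl2fastq 2.20, aligned to mm10 with STAR and counted per gene with RnaReadCounter; the library kit is given as NEBNext Ultra II in the labels and TruSeq Stranded in the methods, and the annotation release and strand setting are not given in the sources used here. The authors deposited raw counts for 24421 gene symbols. From these, genes at 2 CPM or more in at least 2 libraries were kept, scaled by TMM and tested with edgeR 4.0.16 (quasi-likelihood F test, mouse and cell type in the model, two-sided, Benjamini-Hochberg over 11588 genes) in R 4.3.3. Residual degrees of freedom were 1 and the prior ones were estimated as infinite, so all genes took the spread of the abundance trend. Neither the size of a small p-value nor a standard error therefore measures the spread of that gene among the mice. Standard errors are the log2 fold change over the square root of F. DESeq2 1.42.0 was an alternative. Levels per length used the longest protein-coding transcript of GENCODE M21, promoters came from RefSeq (GRCm38.p6), and exact intervals are Clopper-Pearson.

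The mouse was a block because each animal gave 1 library per fraction; the differences between the mice in the 2 fractions correlated at 0.415 across genes. Members and lists were chosen with earlier results of these data known. All members are named; values per library are given for those past the threshold with a log2 fold change of at least 1 in size and for the 10 most abundant, and otherwise where a result needed them. In data simulated for this comparison, 11485 genes were tested. Of 100 genes changed by 1 on the log2 scale, edgeR recovered 100 and DESeq2 92, with 4 and 0 false calls. The simulated spread followed edgeR's own fitted abundance trend, which favours recovery by edgeR. Only genes above a floor of abundance were changed, so the recovery does not cover scarcer genes. Whether the spread in those data matches that of each gene among the mice was not tested, nor was recovery by level. Reads and the other assays of the study were not analysed here. The results of 1 marker list are not reported here.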

Additional observations from a re-analysis of the deposited data

How the results depend on the processing

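The counts of collagen genes higher (4) and lower (21) were 4 and 19 with DESeq2, 4 and 21 with RLE factors, and 4 and 22 with upper-quartile scaling. Col7a1 and Col9a2 are counted as lower here wherever they were called. With no filter they were 5 and 23 of 37, and scaling without collagen genes, 2 CPM in 3 libraries, the likelihood ratio test, robust moderation, a threshold of 0.01 and GC and length offsets each gave 4 and 19 to 22. Without the replicate block they were 1 and 14, and across all genes 8.64% were then higher and 9.66% lower. Against a 1.5-fold change they were 2 and 10, and 2 genes rather than 6 differed between the mice. Shares over all genes are given here only for the main fit, DESeq2, no filter and no block. The other counts have no such share beside them. Leaving out 1 library, in a fit without the block, gave 1 to 3 higher and 8 to 14 lower (14 and 12 without DPPIV- mouse 1 and 2, 8 and 10 without DPPIV+ mouse 1 and 2), and the lone library was assumed to vary like the other group. Of the 25 genes called, 18 lost their call under at least 1 alternative. Col6a5, Col11a2, Col15a1, Col18a1, Col23a1 and Col27a1 kept it under all 19 alternatives with a test. Col9a2 kept it in the 16 that tested it. It passed the main filter through its DPPIV- libraries alone, so its kept call is no support. The share of all called genes that kept their call is not given here. Col5a1, not called, turned to 0.045 with offsets for GC content and length, and Col12a1 turned to -0.012 without DPPIV- mouse 1 and -0.048 without DPPIV+ mouse 2, both without the block. The cause was not tested. The log2 ratio of the collagen share (-0.34) was -0.50 without Col1a1, Col1a2 and Col3a1 and -0.38 with type IV added, and -0.34 in each mouse alone. With 1 mouse left out, the log2 fold changes come from the other mouse alone, with no test. They restate that all 28 genes had the same direction in both mice, as did 72.9% of all genes tested. Filters on the mean level, and no filter with DESeq2, were chosen after seeing the data and gave 5 higher and 19 to 22 lower. At 3 reads, levels under 0.143 to 0.166 CPM could not be resolved.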
